A study of Mus musculus with 8 samples.

Results

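The interferon regulatory factors (IRFs) other than Irf9 were taken as the genes with the symbols Irf1, Irf2, Irf3, Irf4, Irf5, Irf7 and Irf8, which are 7 of the 31053 genes in the deposited count tables, and each was followed in every cell class and library. Of these 7 genes, 6 had at least 1 unique molecular identifier (UMI, a tag by which each captured RNA molecule is counted once), and Irf8 had 0. Among the 5 classes that could be compared, all 6 had their highest mean share of UMIs in microglia, though for Irf7 no difference between classes passed the test. Counted per nucleus, Irf2 and Irf3 were higher in glutamatergic and GABAergic neurons than in microglia. In no class did any of them pass the test between genotypes.

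IRFs are transcription factors with a shared DNA-binding domain that recognises repeats of the letters GAAA in promoters of interferon and interferon-stimulated genes. Irf3, Irf5 and Irf7 are activated by phosphorylation downstream of Toll-like receptors, RNA sensors and cGAS-STING and switch on interferon genes. Irf1 is an activator that is itself induced by interferon, and Irf2 occupies the same sites and is known mainly as its antagonist. Irf4 and Irf8 act with partners such as PU.1 in immune cells, and Irf8 has a part in the development of microglia. Irf7 is a classical interferon-stimulated gene, so that its level depends on the receptor in many cell types.

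The measurements were single-nucleus RNA-seq of snap-frozen cortex from 4 Wt and 4 Ifnar1-/- mice, all untreated, 6 weeks old and on the C57BL6J strain, with 2 females and 2 males of each genotype. The Ifnar1-/- mice lack a subunit of the type I interferon receptor in every cell from conception, and the Wt mice carry both intact alleles. Libraries held 44063346 to 58423423 UMIs. Of 56780 barcodes 52006 nuclei were kept, and 708 of the 54341 that passed the filters (1.303%) shared their barcode sequence with a nucleus of another library. Ifnar1 RNA was still counted, at 13.9 to 16.9 UMIs per 1000000 (CPM) in Ifnar1-/- and 16.2 to 19.9 in Wt over all nuclei, and at 22.9 to 36.9 in Ifnar1-/- and 42.4 to 62.1 in Wt in microglia, so an absent transcript could not serve as a check of the genotype labels. The counts do not show which part of the transcript remains.

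Nuclei were classed by markers, with the 7 IRFs left out of the clustering. At least 20 nuclei in every library were found in 5 classes, namely glutamatergic neurons (26288 nuclei), GABAergic neurons (7334), striatal projection neurons (1246), oligodendrocytes (7079) and microglia (4390). The striatal neurons are not cells of the cortex, which the tissue is labelled as. The median depth was 1472 UMIs per nucleus in microglia and 8862 in glutamatergic neurons. A level in CPM and a level in UMIs per nucleus can therefore order the classes differently. Levels per nucleus are given beside CPM for Irf2 and Irf3, and for Irf1 in microglia and glutamatergic neurons. Fewer nuclei of a type and less RNA per nucleus cannot be told apart in the sums over all nuclei.

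The promoters of the IRFs are shown for the sites through which interferon signalling is known to reach them. In the 250 bases before each RefSeq start (GRCm38.p6), 2 patterns were searched on both strands: GAAANNGAAA, the core of the interferon-stimulated response element (ISRE), and TTCNNNGAA, the gamma-activated site (GAS) of interferon-inducible promoters. All 7 genes matched a promoter. Among all 32851 promoters 2.98% held the first and 7.02% the second. Irf1 and Irf2 held matches among the genes with counts, and Irf8 held 2 of the second pattern, which are not printed since its RNA could not be measured here. The matches of Irf1 and Irf2 are printed with the pattern in capitals.
Irf1 GAS, chr11:53769913-53769942, plus strand, 90 bases before the start: aacagcctgatTTCCCCGAAatgatgaggc
Irf2 ISRE, chr8:46739495-46739524, plus strand, 241 bases before the start: tggggaagtGAAAATGAAAttgacttttcc
Irf2 GAS, chr8:46739510-46739539, plus strand, 224 bases before the start: gaaattgacttTTCCGAGAAatgatgaaag
Neither pattern occurred in this window of Irf3, Irf4, Irf5 or Irf7. A match of letters is a description of the sequence and not of binding.

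Irf8 (ENSMUSG00000041515), a lineage factor of microglia, could not be measured in these tables. It lies on chromosome 8 from 120736358 to 120756694 on the plus strand (GRCm38). The gene model Gm20388 covers it on the same strand, from 119910841 to 124345722, a span of 4435 kb. All 59 counted genes that lie inside Gm20388 on its strand had 0 UMIs in all nuclei, whereas 0 of the 49 genes inside it on the opposite strand did, and 13.6% of the other 30903 genes did. The same-strand genes at 0 included Cox4i1, a subunit of cytochrome c oxidase that every cell uses. Gm20388 itself had 487484 UMIs. In the authors' reference each transcript was made 1 exon from end to end, and Cell Ranger leaves out reads that lie in 2 genes on the same strand. In microglia of a single library 0 UMIs of Irf8 would otherwise have allowed at most 2.36 to 17.1 CPM, but with its neighbours all at 0 the value is no measure of its expression. None of the other 6 genes had a counted gene overlapping it on its own strand.

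**Figure D1:**
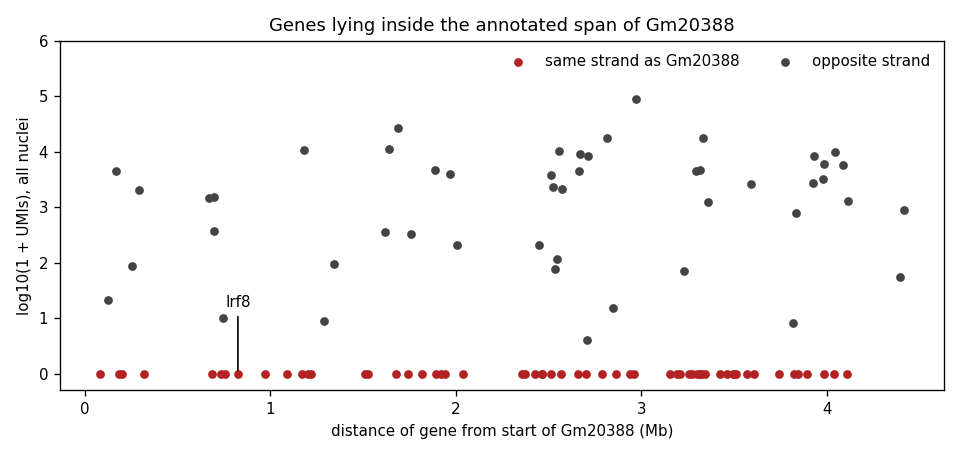
Genes inside the annotated span of Gm20388, placed by their distance from its start in Mb (x axis), with the UMIs of each gene over all nuclei as log10(1 + UMIs) on the y axis. All 59 genes on the strand of Gm20388, Irf8 among them, sit at 0, and the 49 on the opposite strand sit above it.

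Irf5, which carries signals from Toll-like receptors in myeloid cells, was the IRF with the sharpest restriction to a class among those compared. On chromosome 6 from 29526625 to 29541871, it stood in microglia at 125, 150, 95.7 and 94.6 CPM in Wt F1, F2, M1 and M2, and at 91.4, 160, 86.1 and 109 in the Ifnar1-/- libraries of the same names. The genotypes overlapped, and all 8 libraries stood above every library of the other 4 classes, where the highest was 3.82 CPM. The mean was 114 ± 28.4 CPM (SD, n = 8) in microglia and 1.46 ± 0.39 in glutamatergic neurons, a ratio of 78.3 (adjusted p = 0.018, exact sign-flip permutation test of the within-library difference, two-sided, Benjamini-Hochberg over 60 tests of 6 genes and 10 pairs of classes). A UMI of Irf5 was found in 15.6% of microglia and 1.34% of glutamatergic neurons. The levels in the other 4 classes, 1.46 to 1.97 CPM on average, did not differ beyond their spread in any pair. Perivascular macrophages, with 88 nuclei, were too few to be compared. Irf5 stood there at 65.9 CPM over the class from 9 UMIs, which is 56.9% of the microglial level.

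Irf4, a factor of B cells and of some activated myeloid cells, was nearly absent. On chromosome 13 from 30749226 to 30766976, it had 61 UMIs in all nuclei, 22 of them in microglia, and these came from 7 of the 8 libraries at up to 5.71 CPM, with 0 UMIs in Ifnar1-/- M1. The mean in microglia was 3.38 ± 1.97 CPM (SD, n = 8) and that in glutamatergic neurons 0.094 ± 0.065, and each of the 4 differences between microglia and another class passed the test (adjusted p = 0.0293, exact sign-flip permutation test). Oligodendrocytes had 0 UMIs, which allows up to 0.187 CPM over the class. The difference between glutamatergic neurons and oligodendrocytes passed the same test, but the neuronal level lies under that limit, so a lower level in oligodendrocytes was not detectable at this depth.

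Irf1, the interferon-inducible activator, was found in microglia and, at a lower level, in glutamatergic neurons. It lies on chromosome 11 from 53770014 to 53778374. In microglia the Wt libraries F1, F2, M1 and M2 stood at 23.5, 30.1, 30.7 and 30.9 CPM and the Ifnar1-/- libraries at 34.3, 28.6, 32.0 and 22.0 CPM. These ranges overlap throughout. Glutamatergic neurons had 3.48 ± 0.54 CPM (SD, n = 8) and stood under microglia by a ratio of 8.35 and above GABAergic neurons by a ratio of 3.23 and oligodendrocytes by 5.22, in 8 of 8 libraries each (adjusted p = 0.018 for each, exact sign-flip permutation test). GABAergic neurons, striatal projection neurons and oligodendrocytes, at 0.67 to 1.09 CPM, could not be ordered. Per nucleus, microglia held 0.0421 UMIs of Irf1 and glutamatergic neurons 0.0336.

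Irf2, the counterpart of Irf1, was the IRF with the most UMIs in every class. It has the longest span, 108 kb on chromosome 8 from 46739732 to 46847458, and counts here include unspliced RNA. Its mean was 246 ± 36.1 CPM (SD, n = 8) in microglia, 113 ± 7.28 in glutamatergic neurons, 86.2 ± 11.8 in oligodendrocytes, 80.9 ± 4.92 in GABAergic neurons and 70.7 ± 9.80 in striatal projection neurons. Microglia exceeded each other class (adjusted p = 0.018, exact sign-flip permutation test), and glutamatergic neurons exceeded each of the 3 that follow (adjusted p = 0.018 to 0.0293). Oligodendrocytes and GABAergic neurons did not differ beyond the spread, nor did GABAergic and striatal neurons, while oligodendrocytes exceeded striatal neurons (adjusted p = 0.0426). Per nucleus, microglia stood under the neurons, with 0.362 UMIs against 1.08 in glutamatergic, 0.606 in GABAergic and 0.414 in striatal neurons, and oligodendrocytes had 0.195.

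Irf3, the constitutive factor that sensors activate first, stood highest in microglia and lowest in the glutamatergic and striatal neurons. On chromosome 7 from 44997648 to 45002848, its mean was 64.1 ± 7.16 CPM (SD, n = 8) in microglia, 35.8 ± 4.62 in oligodendrocytes, 25.04 ± 3.72 in GABAergic neurons, 14.7 ± 1.91 in glutamatergic neurons and 12.7 ± 3.23 in striatal projection neurons. Of its 10 pairs of classes 9 passed the test, each in 8 of 8 libraries (adjusted p = 0.018, exact sign-flip permutation test), and only the last 2 classes could not be ordered. GABAergic neurons exceeded glutamatergic neurons by a ratio of 1.70, the opposite direction to Irf1 and Irf2. Per nucleus, GABAergic neurons held 0.189 UMIs, glutamatergic neurons 0.143, microglia 0.0970, oligodendrocytes 0.0801 and striatal neurons 0.0738.

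Irf7, the interferon-stimulated member that amplifies interferon production, was close to the limit of detection in these untreated mice. On chromosome 7 from 141262706 to 141266481 on the minus strand, it had 76 UMIs in all 52006 nuclei. Its mean in microglia was 1.37 ± 1.26 CPM (SD, n = 8) from 10 UMIs, against 0.15 ± 0.11 in glutamatergic neurons and 0.27 ± 0.18 in GABAergic neurons. None of its 10 pairs of classes passed the test, with an adjusted p = 0.0507 for microglia against glutamatergic neurons (exact sign-flip permutation test). Among genes, and per kb of gene span, the levels in microglia ran from 12.3 CPM per kb for Irf3, 7.49 for Irf5, 3.47 for Irf1 and 2.28 for Irf2 down to 0.362 for Irf7 and 0.190 for Irf4. Whether the counts scale with gene span was not tested, and without this division Irf2 stood highest, at 246 CPM.

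**Figure D2:**
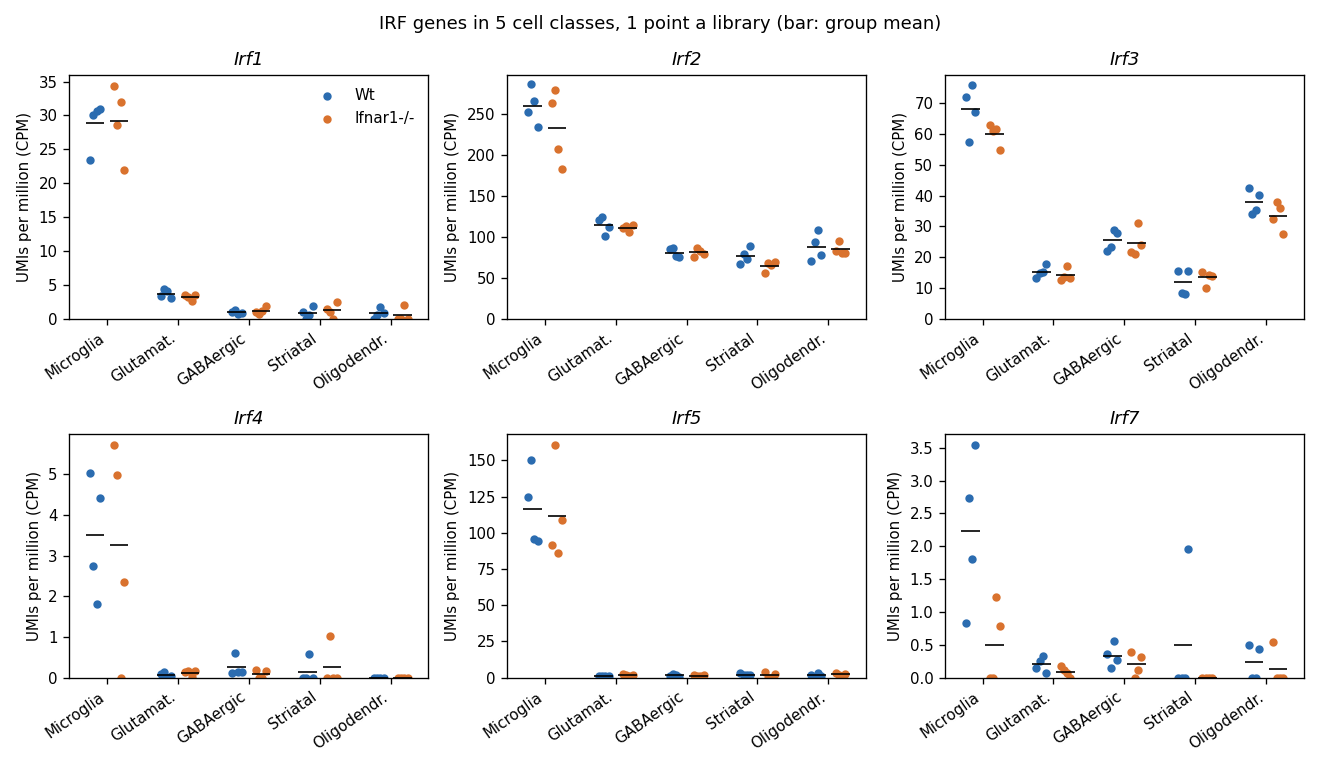
Level in CPM (linear y axis from 0, 1 scale per gene) of 6 IRF genes in 5 cell classes, with 1 point per library, 4 Wt and 4 Ifnar1-/-, and a bar at each group's mean. Irf5 in microglia lies between 86.1 and 160 CPM and at 3.82 CPM or under in the other classes, whereas Irf2 and Irf3 are present in all 5.

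RNA set free during isolation gives some UMIs in nuclei that do not express a gene, so the levels outside microglia were set beside those of 10 microglial marker genes. In glutamatergic neurons the markers stood at 0.0779% to 3.25% of their microglial level, with a median of 0.130%. P2ry12 alone set the upper end, and the other 9 markers lay at 0.883% or under. Irf5 stood at 1.23% and Irf4 at 2.75%, above those 9 and under P2ry12, and the part of free RNA in their UMIs was not tested. Irf7 stood at 10.0%, Irf1 at 12.6%, Irf3 at 23.2% and Irf2 at 47.3%, all above the range. In GABAergic neurons the markers reached 3.16%, and Irf5 stood at 1.29%, Irf1 at 3.88% and Irf4 at 4.98%, the last from 9 UMIs. In oligodendrocytes the markers reached 1.47%, and Irf5 (1.78%) and Irf1 (2.25%) were just above that, with 33 and 10 UMIs.

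**Figure D3:**
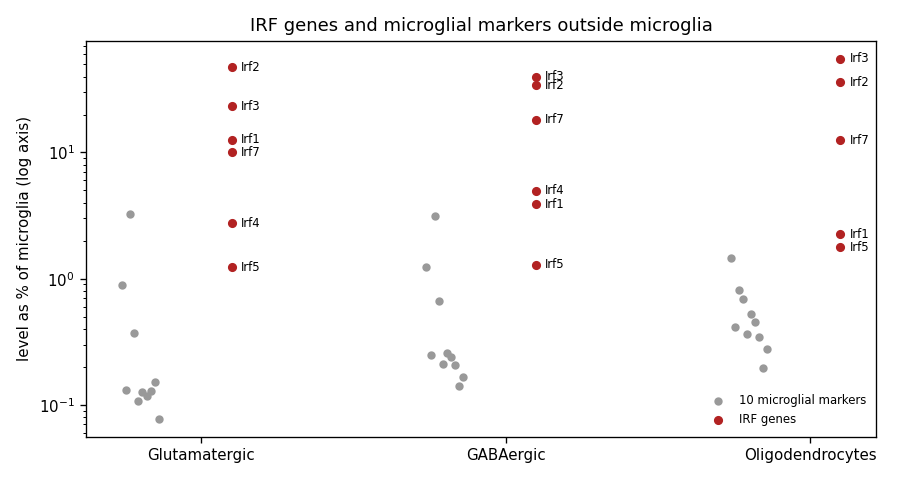
Level outside microglia as a percentage of the microglial level (log y axis) in 3 classes, for 10 microglial markers (grey) and the IRF genes with UMIs there (red). In glutamatergic neurons Irf4 and Irf5 lie above 9 of the 10 markers and under P2ry12 (3.25%), and the other 4 lie above all 10.

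Among the neuron subclasses compared, Irf1 was highest in layer 2/3. At least 20 nuclei in every library were found in 7 subclasses named from markers, which leaves out 15184 of the 26288 glutamatergic nuclei and, with them, 477 of their 882 Irf1 UMIs. This comparison was added after the values had been seen. In layer 2/3 intratelencephalic neurons (4163 nuclei, 293 UMIs) Irf1 stood at 5.49, 10.7, 8.45 and 7.30 CPM in Wt F1, F2, M1 and M2 and at 5.91, 9.09, 6.35 and 7.49 CPM in the Ifnar1-/- libraries. The lowest of these exceeded the highest library of every other subclass, which was 3.95 CPM in layer 4/5 intratelencephalic neurons. The mean of 7.59 ± 1.74 CPM (SD, n = 8) compared with 1.99 ± 1.55 in layer 4/5 intratelencephalic, 1.43 ± 0.55 in layer 5 extratelencephalic and 1.499 ± 0.84 in layer 6 corticothalamic neurons, and with 0.71 to 1.34 in Pvalb, Sst and Lamp5 interneurons. Each of the 6 differences passed the test (adjusted p = 0.0339, exact sign-flip permutation test, Benjamini-Hochberg over 126 tests, in 8 of 8 libraries). Between the genotypes the level in layer 2/3 neurons was 7.97 ± 2.16 in Wt and 7.21 ± 1.42 in Ifnar1-/- (SD, n = 4, exact permutation p = 0.6).

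Irf2 and Irf3 ordered the subclasses in other ways. Irf2 was highest in the intratelencephalic neurons, with 128 ± 10.0 CPM in layer 2/3 and 132 ± 15 in layer 4/5 (SD, n = 8), and lower in layer 6 corticothalamic (93.7 ± 4.79) and layer 5 extratelencephalic neurons (76.3 ± 6.65). Both intratelencephalic subclasses exceeded each of the other 5 (adjusted p = 0.0339, exact sign-flip permutation test) and did not differ from each other beyond the spread. Irf3 was highest in Pvalb interneurons, at 28.7 ± 5.36 CPM, and exceeded all 4 glutamatergic subclasses there, which lay between 12.5 and 17.5 on average (adjusted p = 0.0339). Irf3 in Pvalb interneurons did not pass against Sst (21.3 ± 3.75, adjusted p = 0.131) or Lamp5 interneurons (22.2 ± 4.06, adjusted p = 0.0738) in the same test. Of all 126 tests 29 passed.

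**Figure D4:**
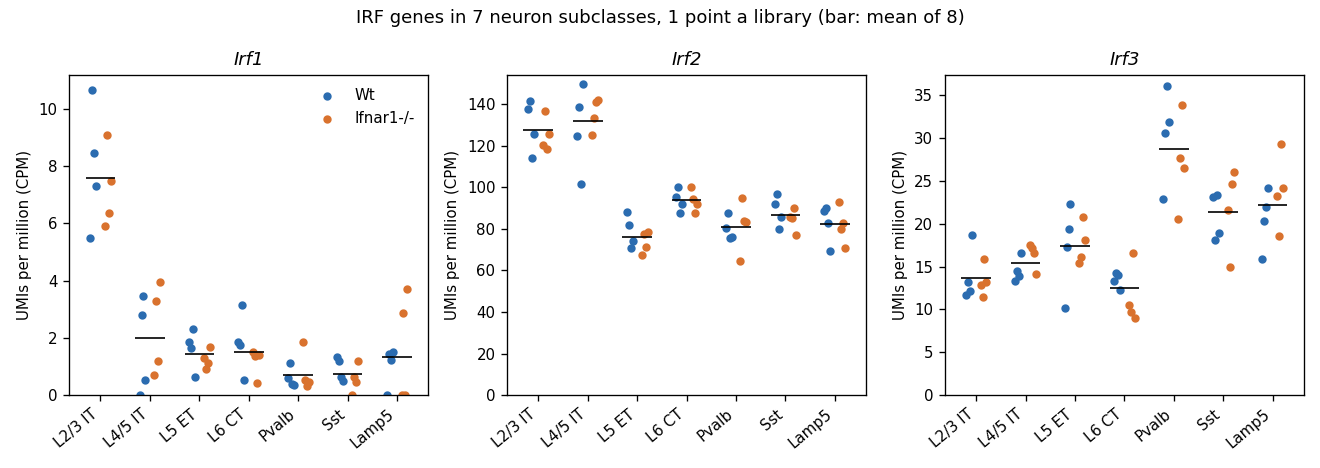
Level in CPM (linear y axis from 0) of Irf1, Irf2 and Irf3 in 7 neuron subclasses (IT, intratelencephalic, ET, extratelencephalic, CT, corticothalamic), with 1 point per library and a bar at the mean of 8. Irf1 in layer 2/3 neurons, from 5.49 to 10.7 CPM, lies above every library of the other 6 subclasses.

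The genotype comparison asked whether the IRFs change when cells cannot sense type I interferon. In microglia 4 of the 7 genes had enough counts to be tested. Irf1 differed by a log2 fold change of -0.03 (SE 0.25, 95% interval -0.57 to 0.51), Irf5 by -0.03 (SE 0.24, -0.55 to 0.48), Irf2 by -0.16 (SE 0.18, -0.55 to 0.22) and Irf3 by -0.19 (SE 0.18, -0.58 to 0.20) in Ifnar1-/- over Wt. None passed (0 of 4, where 0.125% of all 9567 genes tested in microglia passed, Benjamini-Hochberg adjusted p under 0.05, edgeR's quasi-likelihood test), and at an unadjusted p under 0.05 the count was 0 in edgeR and 0 in DESeq2. Of all 9567 genes 156 had an unadjusted p under 0.05 in edgeR and 98 in DESeq2. These intervals, from a fit with genotype as its only term, reach from -0.58 to 0.51, so smaller changes could not be told from none in it. With sex as a covariate 336 of all 9567 genes had an unadjusted p under 0.05 (edgeR), and no IRF passed there either. In counts simulated from the microglial libraries the test recovered 30% of 2-fold and 83% of 4-fold changes over 9567 genes.

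The other classes gave the same count. The number of IRFs that passed was 0 of 6 over all nuclei (0.0501% of all genes tested passed), 0 of 4 in glutamatergic neurons (0.0702%), 0 of 2 in striatal projection neurons (0.0438%), 0 of 3 in GABAergic neurons (0.0267%) and 0 of 2 in oligodendrocytes (0.0634%). At an unadjusted p under 0.05 the count was 1 over all nuclei (Irf7) and 0 in these classes in edgeR, and 0 in all of them in DESeq2. Among all genes, 291 of 19966 reached this p over all nuclei in edgeR, 317 of 18516 in glutamatergic and 243 of 14971 in GABAergic neurons. In oligodendrocytes 212 of 11040 genes did so, and in striatal neurons 200 of 9133. The counts in DESeq2 were 335, 321, 202, 139 and 93 genes in the same order. Irf2, with the most counts, was the most closely bounded, at -0.03 (SE 0.09, 95% interval -0.24 to 0.18) in glutamatergic neurons and 0.01 (SE 0.10, -0.21 to 0.23) in GABAergic neurons. Irf3 differed by -0.10 (SE 0.13) in glutamatergic neurons and -0.18 (SE 0.17) in oligodendrocytes, and Irf1 by -0.18 (SE 0.18) in glutamatergic neurons. Of the 21 fold changes over all nuclei and in the classes 17 were negative. The classes share their libraries, and the sums over all nuclei include the nuclei of the classes. The median over the tested IRFs was -0.12 over all nuclei, -0.11 in oligodendrocytes and -0.10 in microglia. It was -0.06 in glutamatergic, -0.03 in GABAergic and 0.01 in striatal neurons. That of all genes tested was 0.00 in each.

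**Figure D5:**
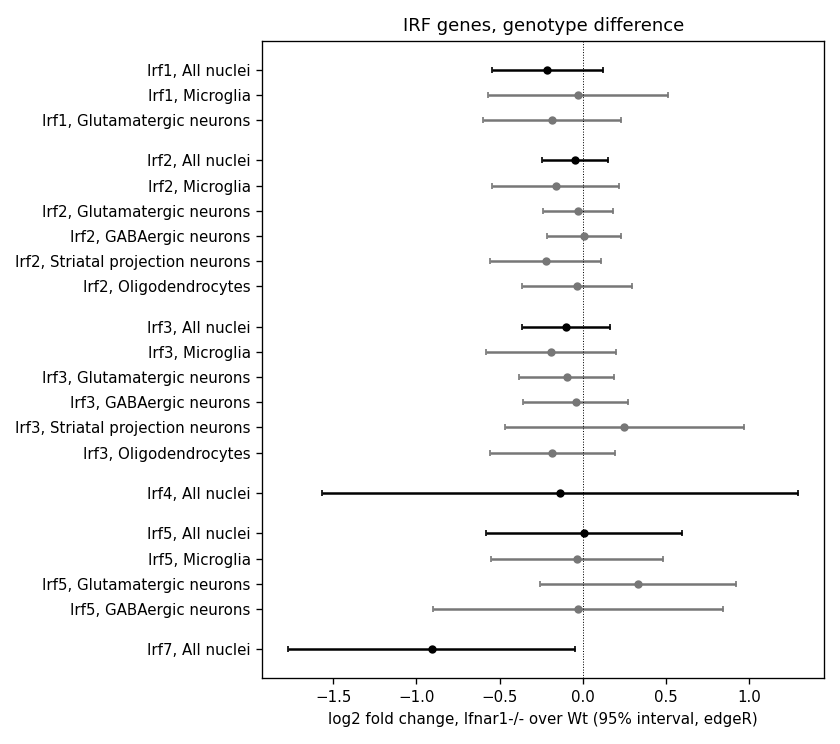
Log2 fold change of each tested IRF gene in Ifnar1-/- over Wt (x axis) over all nuclei (black) and in 5 classes (grey), with 95% intervals from edgeR. All intervals but that of Irf7 over all nuclei, -1.77 to -0.04, include 0.

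Irf7 was the gene with the largest difference. Over all nuclei it had 10, 13, 18 and 10 UMIs in Wt F1, F2, M1 and M2 (0.198, 0.280, 0.355 and 0.231 CPM) and 10, 5, 5 and 5 UMIs in the Ifnar1-/- libraries (0.253, 0.117, 0.094 and 0.109 CPM). Of the 4 Ifnar1-/- libraries 3 lay under all Wt libraries, and Ifnar1-/- F1 lay among them. The log2 fold change was -0.91 (SE 0.38, unadjusted p = 0.0415, adjusted p = 1 over all genes, edgeR), and thus did not pass. It was negative in all 15 fits, the one above and those under other settings or without 1 library, which largely share the same UMIs. The fit to nuclei under 2% mitochondrial UMIs held no value for Irf7. The log2 fold change ran from -1.32 without Ifnar1-/- F1 to -0.73. Unadjusted p ran from 0.00413 to 0.11, and adjusted p was 0.87 or above (edgeR, and DESeq2 in 1 fit). By class, Wt held 8 UMIs and Ifnar1-/- held 2 in microglia (exact permutation p = 0.0571), 27 and 11 in glutamatergic neurons (exact permutation p = 0.2) and 10 and 5 in GABAergic neurons (exact permutation p = 0.343). The ratio of the summed UMIs over all nuclei was 0.516, with an exact 95% interval for counting error of 0.306 to 0.848. This interval leaves out the spread between libraries, and the exact permutation test over all nuclei gave p = 0.0857. Such intervals over all nuclei also lay under a ratio of 1 for Irf1 (0.767 to 0.957), Irf2 (0.949 to 0.987) and Irf3 (0.901 to 0.990).

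Genes under the limit of the model in a class were compared by an exact permutation test of CPM, whose smallest p with 4 against 4 is 0.0286. With 3 against 3, as in astrocytes and perivascular macrophages, the smallest p is 0.1, so those tests could not fall under 0.05. Of 30 such tests 1 had a p under 0.05, that of Irf1 in oligodendrocyte precursors (5 UMIs in the Wt libraries, 3 in the others), and the lowest adjusted p was 0.857. A single test at its smallest p could not pass after adjustment over 30 tests, so these tests could not show a change in 1 gene. Irf4 in microglia had 14 UMIs in the Wt and 8 in the Ifnar1-/- libraries (exact permutation p = 0.914). Whether the genotype effect differed between microglia and glutamatergic neurons was tested directly on the within-library ratio of both classes. None of the 6 genes passed (adjusted p = 0.643 to 0.743, exact permutation test), with a difference in log2 ratio of 0.22 for Irf1, -0.14 for Irf2, -0.05 for Irf3, -1.38 for Irf4 (unadjusted exact permutation p = 0.114), -0.33 for Irf5 and 0.38 for Irf7. With 4 against 4 libraries a single gene at the smallest p could not pass once adjusted over 6 genes. The test could therefore not decide whether the effect of 1 gene differed between the 2 classes.

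The genes around the IRFs in the pathway were counted by fixed lists, which were drawn up with earlier results of these data known. Of 22 sensors, adaptors and kinases upstream of the IRFs 16 were tested in microglia, and 0 passed in either direction in edgeR, with 1 at an unadjusted p under 0.05, the RNA sensor gene Ddx58 (log2 fold change -0.89, SE 0.24, adjusted p = 1). Of 16 partners and corepressors 11 were tested in microglia, 7 with a negative and 4 with a positive log2 fold change. Only Irf9, the DNA-binding subunit of the factor that carries the signal of the receptor, passed, and was lower in Ifnar1-/- (-1.79, SE 0.26, adjusted p = 0.03, edgeR). Stat2, which joins Irf9 in that factor, had -0.36 (SE 0.24) and the corepressor gene Irf2bp2 had -0.46 (SE 0.22), and neither passed. Of 39 interferon-stimulated genes 12 were tested in microglia. All 12 had a negative log2 fold change, 6 had an unadjusted p under 0.05 and 3 passed. Of all 9567 genes tested in microglia 0.125% passed, and 156 had an unadjusted p under 0.05 (edgeR). The 3 that passed were Lgals3bp, a secreted galectin-binding protein (-2.65, SE 0.25, adjusted p = 0.00127), Ifi27 (-2.45, SE 0.34, adjusted p = 0.0219) and Sp100, a component of nuclear bodies (-4.09, SE 0.61, adjusted p = 0.03, edgeR). With 1 library left out the call of Lgals3bp was kept in 8 of 8 fits (adjusted p at most 0.013, edgeR), while those of Irf9, Ifi27 and Sp100 were each lost in 6 of 8 (adjusted p up to 0.163, 0.132 and 0.132), in all 3 cases without Wt F1, F2 or M2 or Ifnar1-/- M1 or M2. The sixth loss came without Ifnar1-/- F1 for Irf9 and without Wt M1 for the other two. All 3 were also lost with classes set without clusters, Irf9 with doublets kept, and Irf9 and Ifi27 under 2% mitochondrial UMIs, and their log2 fold changes stayed negative in every fit. Parp14, Parp9 and Trim30a had -0.81 (SE 0.20), -0.57 (SE 0.20) and -0.65 (SE 0.24) and did not pass. The median of the 12 was -0.62, and that of all genes tested 0.00. In the 3 neuron classes, oligodendrocytes and all nuclei 0 genes of the 3 lists passed in edgeR, with 0 to 6 per list at an unadjusted p under 0.05, and DESeq2 called Sp100 and Lgals3bp over all nuclei and no list gene in those classes.

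Sex was the other factor in the design, and here the libraries of females and males differed widely, with 19.7% of genes passing in microglia, 22.8% in oligodendrocytes, 24.7% in GABAergic neurons, 27.2% over all nuclei and 30.3% in glutamatergic neurons. Against this, 1 of the 4 IRFs tested in microglia passed, and 0 of 2, 3, 6 and 4 in the others. Irf5 in microglia was lower in males, by a log2 difference of -0.54 (SE 0.16, adjusted p = 0.0287, edgeR with genotype in the model). The females stood at 125, 150, 91.4 and 160 CPM and the males at 95.7, 94.6, 86.1 and 109 CPM, and the ranges overlap through Ifnar1-/- F1, which had 156 microglia and 16 UMIs of Irf5. The call was lost in 5 of 8 fits that left out 1 library (Wt F2, M1 and M2 and Ifnar1-/- F2 and M1), with adjusted p from 0.00852 to 0.199, and when doublets were kept (adjusted p = 0.38). Microglia formed 2 clusters. One of them held 94.9% to 96.9% of the microglia of each male and 3.65% to 44.2% of those of each female. The part of this split and of other differences between the libraries of both sexes in the result was not tested. The labels give no preparation batch, so a difference by sex and a difference by batch could not be told apart.

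The genes with the most similar profile to each IRF were found by Pearson's correlation of log2(CPM + 1) over 40 points (5 classes in 8 libraries), which share libraries and are not independent, among 12619 genes with a mean of at least 5 CPM. For Irf5 they were C3ar1, the receptor of complement C3a (r = 0.98), Mlph (r = 0.98) and Slc7a7 (r = 0.98), at 20.4, 20.5 and 53.2 CPM on average. For Irf1 they were Pik3r6, Ldlrad4 and Chd9 (r = 0.96, 0.96 and 0.95), for Irf2 Numb, Akap13 and Ighm (r = 0.97, 0.96 and 0.96) and for Irf3 Gatad2a, Cerk and Ankrd44 (r = 0.96, 0.96 and 0.96). For Irf4 they were Clcf1, Gm5127 and Csf2rb2 (r = 0.90, 0.89 and 0.89). For Irf7 they were Secisbp2, Psmb9, an interferon-stimulated subunit of the immunoproteasome, and Bad (r = 0.72, 0.72 and 0.70).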

How the data were processed

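Nuclei of 8 cortices were profiled with the Single Cell 3' v3 chemistry. The authors aligned reads with Cell Ranger (version 3.1.0 in the file headers) to mm10, with whole transcripts as exons so that unspliced RNA was counted, and the deposited values are raw UMI counts. Seurat 3.1.5 is named in the submitters' notes. Here nuclei with 200 to 6000 genes, over 1000 UMIs and under 10% mitochondrial UMIs were kept. Scrublet marked 2335 of 54341 as doublets (4.30%), which were removed, and the rest were clustered (68 clusters, Leiden resolution 1.5, 40 principal components of 3000 genes, scanpy 1.11.5) and named from marker lists. A total of 4756 nuclei stayed unnamed. UMIs were summed per class and library and compared with edgeR 4.0.16 (quasi-likelihood, TMM, filterByExpr, Benjamini-Hochberg over all genes of the class, genotype as the only term, libraries with at least 10 nuclei) and DESeq2 1.42.0 as an alternative. Single values were compared by exact permutation. Intervals of summed UMIs cover counting error only. The tests were checked on simulated data. Libraries with the same label (F1, F2, M1, M2) deviated together (r = 0.17 to 0.64 from the genotype means), but not once sex was removed (-0.19 to 0.07), and a fit with the label as a block was also run. Each library is 1 mouse. The 7 genes and all lists were chosen with earlier results of these data known. All 7 genes are named in every class, of the other lists those that passed and up to 3 of the lowest unadjusted p (1 such gene is not reported here), and 3 most similar genes each. Gene positions are from GENCODE vM21 (GRCm38), in which 31011 of 31053 gene IDs were found.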

Additional observations from a re-analysis of the deposited data

Results flagged for a closer look

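Irf1 in microglia of Wt F1 stood at 23.5 CPM (28 UMIs), apart from the other 3 Wt libraries at 30.1 to 30.9 CPM. It was the only library that stood apart from its group by Dixon's criterion in 38 groups of 4 libraries, and chance gives about 1 in 20. The lowest Ifnar1-/- library, M2, stood lower still, at 22.0 CPM.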

How the results depend on the processing

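No IRF passed the genotype test in any class under any of 106 fits over all nuclei and the 5 classes, with adjusted p of 0.835 or above. These fits used DESeq2 size factors, the DESeq2 test, no filter on low counts, sex as a covariate, the replicate block, doublets kept, classes from each nucleus's own marker UMIs without clusters, a coarser clustering, nuclei under 2% mitochondrial UMIs or 7 libraries. With the replicate block no call on an IRF changed. Fold changes near 0 changed sign in places, as follows. Irf5 became -0.0072 over all nuclei and 0.018 in GABAergic neurons with the replicate block, and 0.011 in GABAergic neurons and 0.031 in microglia with sex as a covariate. With doublets kept, Irf5 over all nuclei became -0.013 and Irf2 in oligodendrocytes 0.0089. Under 2% mitochondrial UMIs, Irf1 in microglia became 0.17 and Irf5 over all nuclei -0.16. Without the filter Irf2 in GABAergic neurons became -0.0011, and with classes without clusters -0.080, where Irf3 became 0.028 in GABAergic and -0.089 in striatal neurons. With 1 library left out the log2 fold change of Irf1 in microglia ranged from -0.13 to 0.13, that of Irf2 from -0.10 to 0.018 over all nuclei, -0.11 to 0.037 in oligodendrocytes, -0.092 to 0.029 in glutamatergic and -0.037 to 0.065 in GABAergic neurons, that of Irf3 from -0.16 to 0.017 in GABAergic neurons, that of Irf4 from -0.43 to 0.28 over all nuclei, and that of Irf5 from -0.15 to 0.16 over all nuclei, -0.25 to 0.35 in GABAergic neurons and -0.29 to 0.13 in microglia. The difference in log2 ratio between microglia and glutamatergic neurons ranged from -0.14 to 0.041 for Irf3 and from -0.31 to 1.02 for Irf7. The cause was not tested. The lower Irf5 level of male microglia was no longer called with doublets kept (-0.54) or classes without clusters (-0.45), where the count of IRFs called by sex was 0, and ranged from -0.63 to -0.39 with 1 library left out, with 0 to 1 IRFs called; these settings were chosen after seeing the data. Between classes, 33 of 60 pairs passed. The count was 29 with each nucleus thinned to 1000 UMIs and 33 with doublets kept. With classes without clusters it was 39, and with 1 library left out 26 to 30. By mean CPM, microglia was the highest class of all 6 IRFs in each. Doublets kept lowered the microglial mean of Irf5 to 79.4 CPM and that of Irf1 to 19.4. The count of all genes called by genotype ranged from 4 to 43 over all nuclei (10 in edgeR as reported, 43 in DESeq2), 3 to 22 in microglia (12), 2 to 17 in oligodendrocytes (7), and 4 to 41 (13), 3 to 17 (4) and 0 to 8 (4) in the glutamatergic, GABAergic and striatal neurons. Depth limits Irf4 and Irf7 in every class and all IRFs in the small classes.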

Other observations

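In classes too small for the comparisons the IRFs were counted as follows. In 88 perivascular macrophage nuclei, resident macrophages outside the brain tissue proper, Irf2 had 30 UMIs, Irf1 10, Irf5 9, Irf3 6, Irf4 1 and Irf7 0. The mean of Irf1 there was 134 ± 106 CPM in Wt (8 UMIs) and 25.7 ± 34.2 CPM in Ifnar1-/- (2 UMIs, SD, n = 4 each), beside 28.8 and 29.2 CPM in microglia. These are too few UMIs to order the classes or the genotypes. In the libraries with at least 10 such nuclei (n = 3 each) Irf1 stood at 99.2 and 34.2 CPM (exact permutation p = 0.4). Irf2 went the other way in those libraries, with 4 UMIs in Wt and 24 in Ifnar1-/- (exact permutation p = 0.2). A UMI of Irf1 was found in 10.2% of these nuclei and in 3.96% of microglia, at median depths of 1529 and 1472 UMIs, and 1 to 20 such nuclei came from each library. In 453 oligodendrocyte precursors Irf2 had 129 UMIs, Irf3 38, Irf1 8, Irf5 1 and Irf7 1. In 159 astrocytes Irf2 had 45 UMIs, Irf3 21, Irf1 5 and Irf5 2, and in 213 newly formed oligodendrocytes Irf2 had 127, Irf3 25, Irf5 3 and Irf1 1. Irf4 had 0 UMIs in all 3 of these glial classes, Irf7 had 0 in the last 2, and Irf8 had 0 in each.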
